A study of Mus musculus with 6 samples.

Results

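A group of miRNAs that are usual candidates for reference genes in qPCR was followed through small RNA sequencing of small extracellular vesicles (sEVs) released by mouse islets. The members were all listed entries named miR-191, miR-425, miR-423, miR-484, miR-186 or miR-320, with any arm, chosen by name. The table of 718 entries held 9 of them, listed as mmu-miR-191-5p, mmu-miR-191-3p, mmu-miR-425-5p, mmu-miR-425-3p, mmu-miR-423-5p, mmu-miR-423-3p, mmu-miR-484, mmu-miR-186-5p and mmu-miR-320-3p. The nid-sEVs (3 libraries) came from islets of wild-type C57/B6J mice on a normal chow diet (NCD), and the aid-sEVs (3 libraries) from islets of mice of the same strain and genotype on a high-fat diet (HFD). The study's general statement on the diet is 9 weeks of HFD, its general account of the feeding starts from mice 8 weeks old, and all islets were cultured without serum for 48 hours before the medium was collected. The study states in general that its experiments had at least 3 biological replicates, but whether each of these libraries came from 1 mouse or from pooled islets is not given in the sources used here, and p-values measure the spread between these libraries.

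A miRNA is cut from a hairpin, and one strand of it (the 5p or the 3p arm) is usually kept in an Argonaute protein, where bases 2 to 8, the seed, pair with target mRNAs. A reference miRNA in qPCR is a divisor: the level of every other miRNA is read relative to it, so it must keep the same level between the samples compared. The miRNAs followed here serve this purpose because many tissues and body fluids contain them. miR-191 and miR-425 come from neighbouring hairpins, miR-423 gives a stable product from either arm, and miR-320 and miR-484 come from short capped hairpins that do not need Drosha, the nuclear enzyme that cuts most other miRNA precursors.

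The mature sequences below, from RefSeq on GRCm38.p6 for 8 of the 9 entries, are shown because the assay of each reference rests on these letters and because reads of relatives with a shared sequence could be counted together. The seed is in capitals.
miR-191-5p: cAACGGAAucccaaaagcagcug
miR-191-3p: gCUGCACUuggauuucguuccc
miR-425-5p: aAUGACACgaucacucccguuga
miR-425-3p: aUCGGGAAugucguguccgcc
miR-423-5p: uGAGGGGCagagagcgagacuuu
miR-423-3p: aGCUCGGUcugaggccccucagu
miR-484: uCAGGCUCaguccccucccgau
miR-186-5p: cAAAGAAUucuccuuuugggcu
The 8 seeds differed from each other, so the members form no seed family. Of the 1679 mature mouse miRNAs in the same RefSeq table, 1 other shared the seed of miR-423-5p (miR-6921-5p) and 1 other that of miR-425-5p (miR-489-3p), and neither was listed in these libraries. The G and C content ran from 40.9% in miR-186-5p to 65.2% in miR-423-3p.

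The hairpins lie in different settings of GRCm38 in the GENCODE M21 annotation. Mir191 (chromosome 9, 108568319 to 108568392) and Mir425 (108568777 to 108568861) are on the plus strand, 384 bases apart, and both overlap an exon of the long noncoding gene 4833445I07Rik on the same strand. Mir423 (chromosome 11, 77078064 to 77078172, minus strand) lies in an intron of Nsrp1, and Mir186 (chromosome 3, 157544279 to 157544349, plus strand) in an intron of Zranb2, with no exon overlapping either. Mir484 (chromosome 16, 14159626 to 14159692, plus strand) overlaps an exon of Marf1, which is transcribed from the other strand. Mir320 (chromosome 14, 70443510 to 70443591, plus strand) overlaps no other gene and lies 63 bases from Polr3d, which is on the minus strand.

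Levels were deposited as RPM, reads scaled to a common library total, and dividing them by the RPM of a single read gave whole reads throughout. The totals implied by RPM were 50534 to 129152 reads in nid-sEVs and 122266 to 519315 reads in aid-sEVs. The listed entries nearly filled them, with 129024 of 129152 reads in nid-sEV replicate 1, so they need not be all sequenced reads. With these totals 3 reads, used as the detection floor, were 23.2 to 59.4 RPM in nid-sEVs and 5.78 to 24.5 RPM in aid-sEVs. Intervals (95%, Wilson) and these floors cover counting error only. Nid-sEV replicate 1 stood apart, with 33.4% of its reads on entries that carry no miRBase name against 6.61% to 9.45% elsewhere, and values without it are given beside the results that it moved most. The islet markers miR-375-3p, miR-7a-5p, miR-184-3p and miR-182-5p were present in all libraries, with a summed level of 73247 to 359718 RPM in nid-sEVs and 182496 to 202064 RPM in aid-sEVs. The summed red blood cell markers (4 of 4 listed) were 4215 to 8989 RPM in nid-sEVs and 372 to 1509.7 RPM in aid-sEVs, where miR-144-5p was at 0 in every library. Leukocyte markers (4 of 4 listed) were 152 to 416 RPM and 24.5 to 34.7 RPM, and the liver marker miR-122-5p was 396 to 2999.8 RPM and 24.5 to 42.6 RPM. For these 3 lists the aid-sEV libraries were lower without overlap. Exocrine, mesenchymal and endothelial markers overlapped between the groups. The members are also found in blood cells, and the part of such cells in their levels was not tested.

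miR-320-3p was the steadiest reference over all 6 libraries and within nid-sEVs, while miR-423-5p and miR-186-5p varied less within aid-sEVs. Its levels were 1711, 2741 and 2276 RPM in nid-sEV replicates 1, 2 and 3 and 2565, 2697 and 2037 RPM in aid-sEV replicates 1, 2 and 3. The groups overlapped, with every aid-sEV level inside the range of the nid-sEV levels. Its mean was 2243 ± 516 RPM in nid-sEVs and 2433 ± 349 RPM in aid-sEVs (SD, n = 3 each), and the highest of the 6 libraries was 1.60-fold above the lowest. The log2 fold change on log2(RPM + 1), aid-sEVs over nid-sEVs as in all comparisons here, was 0.13, with a 95% interval of -0.73 to 0.996 and an adjusted p of 0.84 by limma. In such bulk libraries, a change in the vesicles collected and a change in the RNA per vesicle cannot be told apart. The interval leaves room for a change of close to 2-fold upward, and the sign of so small a value depends on the scaling. Relative to reads with a miRBase name alone it was -0.041, without nid-sEV replicate 1 it was -0.048, and with levels divided by TMM factors it was 0.63.

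miR-191-5p was the most abundant member in aid-sEVs and ranked 9 of all entries there. It stood at 18312, 8268 and 5897 RPM in nid-sEV replicates 1, 2 and 3 and at 21809, 32841 and 37288 RPM in aid-sEV replicates 1, 2 and 3. The groups did not overlap, with aid-sEVs higher, but nid-sEV replicate 1 came close to aid-sEV replicate 1, and its interval of 17595 to 19057 RPM ended below the 21416 RPM at which that of aid-sEV replicate 1 began. The means were 10826 ± 6591 and 30646 ± 7969 RPM, and the difference of 1.63 on the log2 scale (SE 0.48) missed the threshold of 0.05 by limma (adjusted p = 0.070). Without nid-sEV replicate 1 the log2 fold change was 2.10 and the adjusted p 0.016. With levels divided by TMM factors they were 2.13 and 0.035 by limma. These were the 2 of 17 other settings in which miR-191-5p passed. Reads of the other arm, miR-191-3p, numbered 6, 0 and 0 in the nid-sEV replicates and 26, 25 and 2 in the aid-sEV replicates. At 0 to 71.0 RPM it was under the floor of 3 reads in 3 of the 6 libraries, and its adjusted p of 0.24 by limma became 0.020 without nid-sEV replicate 1. Both nid-sEV libraries then left held 0 reads, with Wilson upper limits of 58.5 and 76.0 RPM. The aid-sEV levels were 50.1, 71.0 and 16.4 RPM. The adjusted p of 0.020 by limma therefore rests on libraries at 0 reads and on the added 1.

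The neighbouring hairpin of miR-425 gave few reads. For miR-425-5p, nid-sEV replicates 1, 2 and 3 held 27, 3 and 0 reads (209, 45.7 and 0 RPM), and the aid-sEV replicates 30, 33 and 11 reads (57.8, 93.7 and 89.97 RPM). The aid-sEV libraries lay within the range of the nid-sEV libraries, and the single highest level of the 6 was in nid-sEV replicate 1. Its mean RPM differed little between the groups, 84.9 ± 110 against 80.5 ± 19.8 (SD, n = 3 each), and the sign of its fitted change depended on the setting. For miR-425-3p the nid-sEV replicates held 1, 0 and 0 reads and the aid-sEV replicates 14, 2 and 1, at or under the floor in 5 of the 6 libraries. Of the 9 entries, 6 were detected in every library, and the ratios given further on use these 6.

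**Figure D1:**
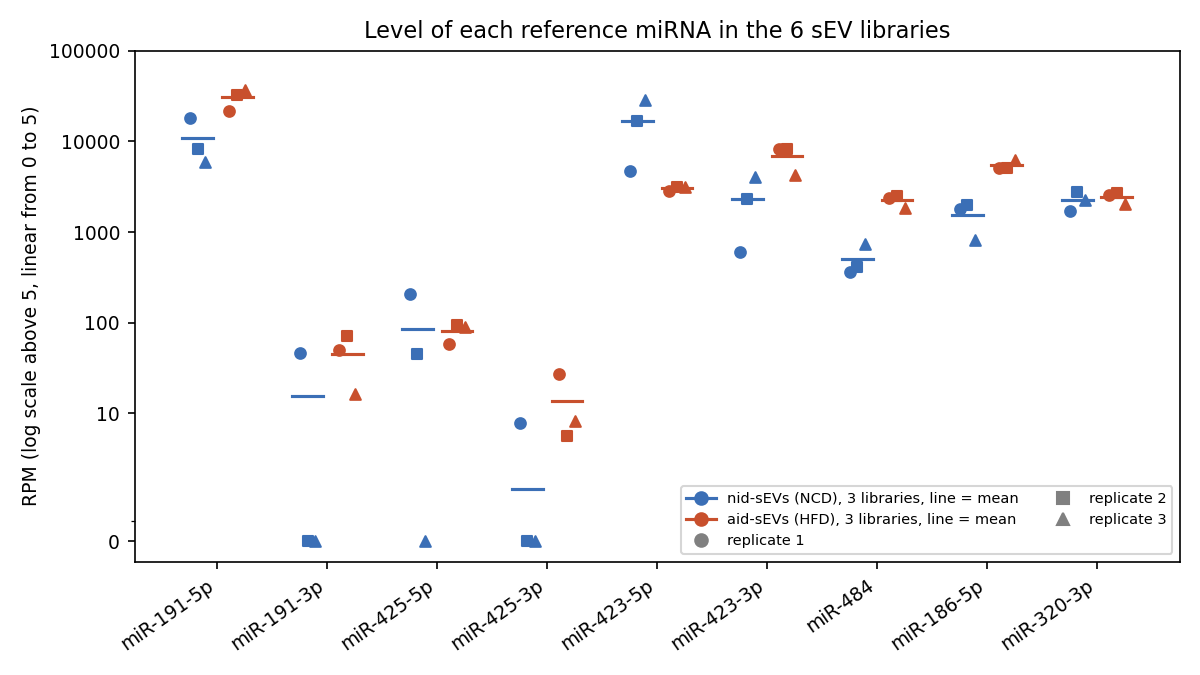
Level of the 9 reference miRNAs in RPM (vertical axis, logarithmic above 5 RPM) for the 3 nid-sEV libraries (blue) and the 3 aid-sEV libraries (red), with the symbol giving the replicate and the line the mean of the group. miR-320-3p stays between 1711 and 2741 RPM in all libraries, miR-484 and miR-186-5p are higher in every aid-sEV library, and the arms of miR-423 are displaced in opposite directions.

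The arms of miR-423 moved apart. Their hairpin is shown with the 5p arm (bases 29 to 51) and the 3p arm (bases 65 to 87, 13 bases further on) in capitals, because the result turns on the proportion of its arms.
Mir423: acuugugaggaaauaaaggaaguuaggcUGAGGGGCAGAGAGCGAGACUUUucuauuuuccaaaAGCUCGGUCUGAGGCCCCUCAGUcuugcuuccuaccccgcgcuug
miR-423-5p stood at 4669, 16735 and 28496 RPM in nid-sEV replicates 1, 2 and 3 and at 2859.5, 3148 and 3141 RPM in aid-sEV replicates 1, 2 and 3. Here aid-sEVs were lower without overlap, and the nid-sEV libraries differed among themselves by 6.10-fold, while the aid-sEV libraries differed by 1.10-fold. miR-423-3p stood at 596, 2299 and 4057 RPM in the nid-sEV replicates and at 8346, 8188 and 4294 RPM in the aid-sEV replicates. For this arm aid-sEVs were higher without overlap, although aid-sEV replicate 3 and nid-sEV replicate 3 were close, with intervals of 3943 to 4676 and 3539 to 4650 RPM that overlapped.

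Neither arm passed the test by itself. For miR-423-5p the difference was -2.10 on the log2 scale (SE 0.67; limma, adjusted p = 0.090), from a mean of 16633 ± 11914 RPM to one of 3049.5 ± 165 RPM. Without nid-sEV replicate 1 it was -2.84 with an adjusted p of 0.0066, and relative to reads with a miRBase name it was -2.27 with an adjusted p of 0.034. On the recovered reads, the adjusted p of miR-423-5p was 0.037 by edgeR's quasi-likelihood test, 0.0085 by DESeq2 and 0.096 by edgeR's exact test. For miR-423-3p it was 1.91 (SE 0.76; limma, adjusted p = 0.16), from 2317 ± 1730.3 to 6942 ± 2295 RPM. Its value fell to 1.12 without nid-sEV replicate 1 (adjusted p = 0.17 by limma) and was 2.50 without nid-sEV replicate 3 (adjusted p = 0.075).

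The ratio of the arms within a library does not depend on the library total, and it separated the groups more sharply than either level. In nid-sEVs the 5p arm gave 7.83, 7.28 and 7.02 times the RPM of the 3p arm in replicates 1, 2 and 3, although the summed level of both arms ran from 5265 to 32552 RPM. In aid-sEVs the same ratio was 0.343, 0.385 and 0.731. As a share of the reads of both arms, miR-423-5p took 87.5% to 88.7% in nid-sEVs and 25.5%, 27.8% and 42.2% in aid-sEV replicates 1, 2 and 3. The lowest interval in nid-sEVs (85.9% to 89.0%, replicate 3) and the highest in aid-sEVs (39.1% to 45.5%, replicate 3) were far apart. The log2 ratio of the arms was 2.88 ± 0.08 in nid-sEVs and -1.13 ± 0.59 in aid-sEVs, a difference of -4.01 (SE 0.34), and omitting any 1 library left it between -4.34 and -3.80. The two-sided exact permutation test gave p = 0.10, the smallest that 3 against 3 libraries allow (adjusted p = 0.19 over 15 ratios between members).

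Among the 16 hairpins with both arms detected in every library, the size of this difference was the largest, with a median size of 0.77 for all 16. The groups were apart in the arm ratio of 4 of them (25%). The next in size, named after its value was seen, was miR-199a with a difference of -3.49.

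**Figure D2:**
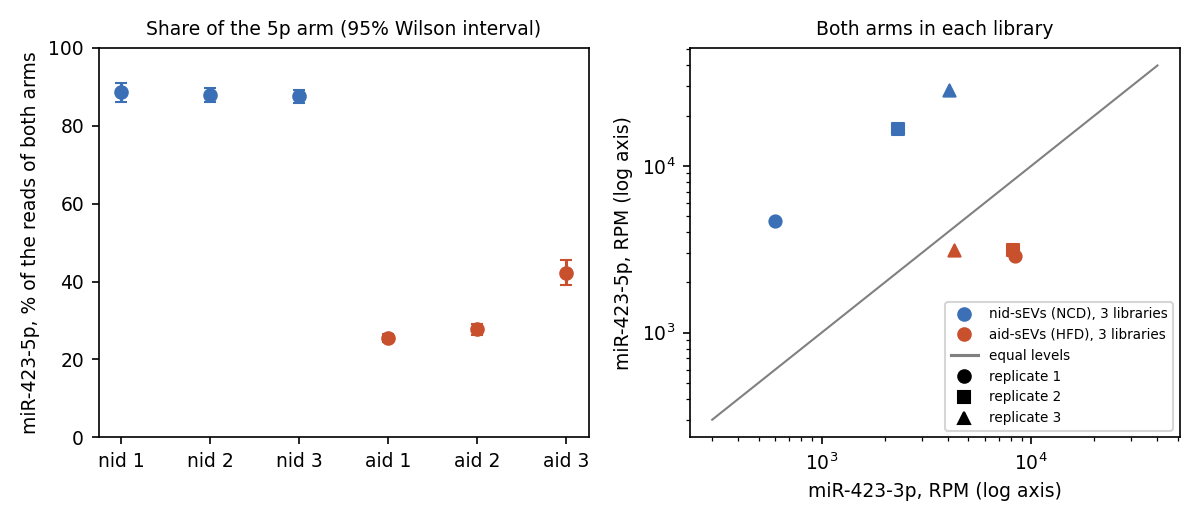
Left, miR-423-5p as a percentage of the reads of both miR-423 arms in each library, with 95% Wilson intervals. Right, RPM of the 5p arm against RPM of the 3p arm on logarithmic axes, with the line of equal levels. The 5p arm takes 87.5% to 88.7% in nid-sEVs (blue) and 25.5% to 42.2% in aid-sEVs (red), and the groups fall on opposite sides of the line.

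miR-484 and miR-186-5p were the members that limma called higher in aid-sEVs. For miR-484, nid-sEV replicates 1, 2 and 3 held 47, 27 and 37 reads (364, 411 and 732 RPM), and the aid-sEV replicates 1244, 881 and 224 reads (2395, 2501 and 1832 RPM). The groups did not overlap, and the highest nid-sEV library (replicate 3, interval of 531 to 1009 RPM) stayed below the lowest aid-sEV one (replicate 3, interval of 1608 to 2088 RPM). Its means were 502 ± 200.4 and 2243 ± 359.7 RPM, a ratio of 4.46, and 2.21 on the log2 scale (SE 0.44; limma, adjusted p = 0.024). The adjusted p by limma was 0.077, 0.066 and 0.076 without nid-sEV replicate 2, aid-sEV replicate 1 or aid-sEV replicate 2, while the log2 fold change stayed between 2.02 and 2.52 with each library left out.

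miR-186-5p stood at 1812, 1979.6 and 811 RPM in nid-sEV replicates 1, 2 and 3 and at 5079.8, 5073 and 6167 RPM in the aid-sEV replicates. The groups did not overlap, and nid-sEV replicate 3 was the low library. The means differed by a ratio of 3.55, and by 1.92 on the log2 scale (SE 0.45; limma, adjusted p = 0.033). The call was lost without nid-sEV replicate 2 (adjusted p = 0.075) and without any 1 of the aid-sEV libraries (adjusted p = 0.093, 0.10 and 0.090 for replicates 1, 2 and 3). In nid-sEV replicate 1 and aid-sEV replicate 3, which had similar totals, miR-484 and miR-186-5p differed by 2.33 and 1.77 on the log2 scale and miR-320-3p by 0.25. Between the same libraries miR-423-3p differed by 2.85, miR-191-5p by 1.03 and miR-423-5p by -0.57. Nid-sEV replicate 1 is the library with 33.4% of its reads on entries without a miRBase name.

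In all, limma on log2(RPM + 1) over the 718 entries, where a call needed both an adjusted p below 0.05 and a change of more than 2-fold, called 2 of the 9 members higher and 0 lower in aid-sEVs. Over all entries it called 15.6% higher and 1.81% lower. At an unadjusted p under 0.05 and the same fold threshold, 4 members were higher and 1 was lower, against 157 and 42 of the 718 entries. edgeR's quasi-likelihood test and DESeq2 each called 2 members higher and 1 lower on the recovered reads, and edgeR's exact test called 2 and 0. Over all entries, the quasi-likelihood test called 48 higher and 21 lower of 245 tested. DESeq2 called 65 and 50 entries, and the exact test 63 and 17. Aid-sEVs were higher without overlap for 4 members, against 24.2% of all entries, and lower without overlap for 1 member, against 7.52% of all entries. Among the 219 entries detected in every library, to which these 5 members belong, the shares without overlap were 20.5% and 20.1%, and limma called 10% higher and 4.11% lower.

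The size of these changes has to be read against the other entries. The median log2 fold change was 1.11 over all entries, many of which had 0 reads in the shallower nid-sEV libraries, and -0.21 over the 219 detected in every library. Relative to the latter median, miR-484, miR-186-5p, miR-423-3p and miR-191-5p were 2.42, 2.13, 2.11 and 1.84 higher, miR-320-3p was 0.34 higher, and miR-423-5p stood at -1.89. Division by TMM factors moved this median by 0.50.

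**Figure D3:**
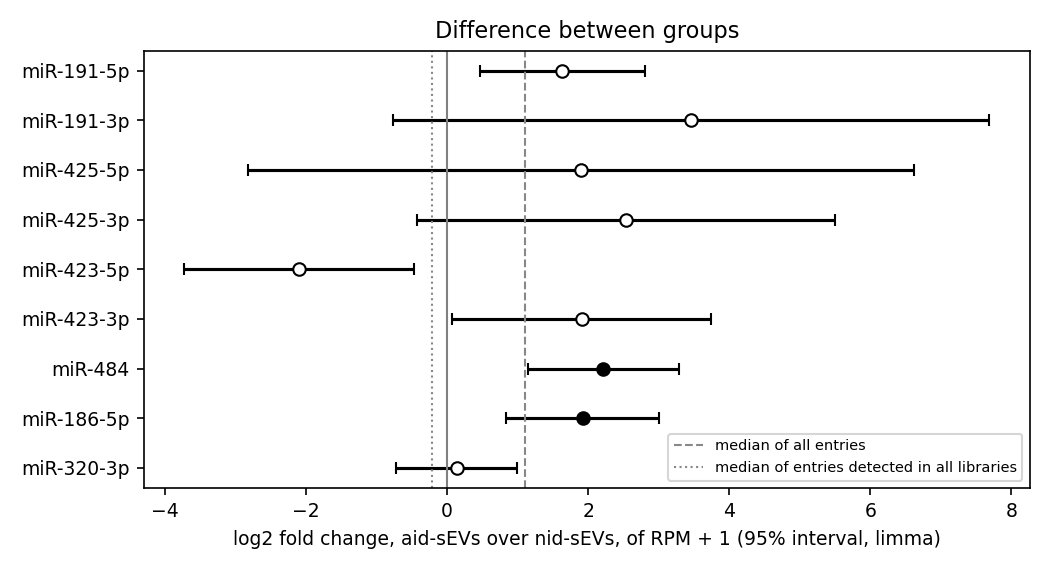
Log2 fold change of RPM + 1 between aid-sEVs and nid-sEVs (horizontal axis) for each reference miRNA, with 95% intervals from limma; filled circles mark the members called, and the dashed and dotted lines mark the medians of all entries (1.11) and of entries detected in all libraries (-0.21). miR-320-3p lies next to 0, miR-423-5p alone is below 0, and the wide intervals of miR-191-3p and of both miR-425 arms belong to entries with libraries at 0 reads, whose fitted size depends on the added 1.

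Within the groups, the 6 members detected everywhere were all steadier in aid-sEVs. The SD of log2(RPM + 1) over the aid-sEV libraries was 0.079 for miR-423-5p, 0.16 for miR-186-5p, 0.22 for miR-320-3p, 0.24 for miR-484, 0.40 for miR-191-5p and 0.55 for miR-423-3p. Over the nid-sEV libraries it was 0.34 for miR-320-3p, 0.54 for miR-484, 0.71 for miR-186-5p, 0.84 for miR-191-5p, 1.34 for miR-423-5p and 1.42 for miR-423-3p. miR-423-5p thus ranked 2 of 219 entries for steadiness in aid-sEVs and 152 of 219 in nid-sEVs. The aid-sEV SD was the smaller for 79.9% of the 219 entries, so a smaller spread there was not particular to the members.

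The spread was mostly wider than read counting alone gives. In nid-sEVs the observed SD was 2.21 times the SD that counting alone gives for miR-484, 3.0 times for miR-320-3p, 13.4 times for miR-191-5p and 28.2 times for miR-423-5p. In aid-sEVs miR-423-5p was at 1.47 times its counting SD, whereas miR-191-5p, with 4559 to 11568 reads per library, was at 24.5 times.

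Over all 6 libraries together, miR-320-3p had an SD of 0.27 and ranked 4 of the 219 entries detected everywhere. The SD was 1.07 for miR-191-5p, 1.15 for miR-186-5p, 1.27 for miR-484, 1.42 for miR-423-3p and 1.43 for miR-423-5p, ranks 109, 122, 137, 148 and 150 of 219. The median of the 219 entries was 1.07, so that miR-191-5p stood at the middle of these entries and 4 members stood beyond it. The differences between members in this order were not tested.

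**Figure D4:**
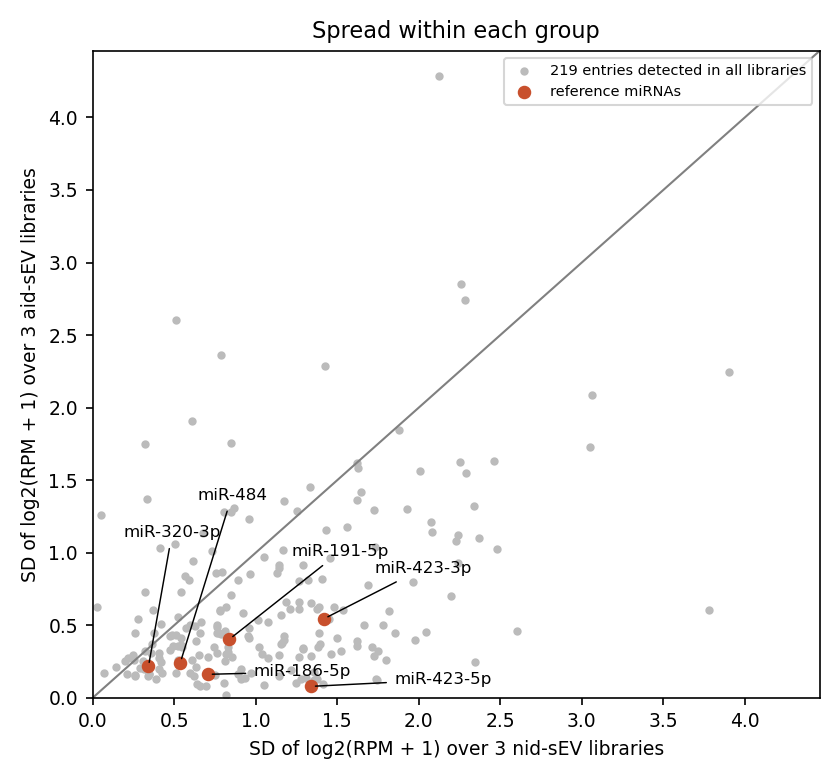
SD of log2(RPM + 1) over the 3 nid-sEV libraries (horizontal axis) and over the 3 aid-sEV libraries (vertical axis) for the 219 entries detected in all libraries (grey), with the 6 reference miRNAs in red and the line of equal spread. All 6 lie below the line, and miR-423-5p joins an SD of 1.34 in nid-sEVs with one of 0.079 in aid-sEVs.

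qPCR practice judges references by the ratio of one to another, which should stay the same in every sample. The SD of the log2 ratio over the 6 libraries was smallest, at 0.48, for miR-186-5p and miR-191-5p. Their ratio was -2.75 ± 0.64 in nid-sEVs and -2.46 ± 0.32 in aid-sEVs, so these miRNAs kept a like proportion while both stood higher in aid-sEVs. The largest SD was 2.51, for miR-423-5p and miR-186-5p. Of the 15 ratios, the groups were apart in 8, which include all 5 that involve miR-423-5p, and 14 varied less among aid-sEV libraries than among nid-sEV libraries. The exception was the ratio of the miR-423 arms, with an SD of 0.080 in nid-sEVs and 0.59 in aid-sEVs. The 15 ratios share members and are not independent, and no exact permutation test over them had an adjusted p under 0.19. No share of ratios apart is given here for other entries, so the 8 cannot be set against a background of ratios. For single entries detected in every library, 20.5% were higher and 20.1% lower without overlap.

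miR-484 and miR-320-3p gave the tightest ratio within a group. The log2 ratio of miR-484 to miR-320-3p was -0.10, -0.11 and -0.15 in aid-sEV replicates 1, 2 and 3, an SD of 0.029. In nid-sEVs it was -2.23, -2.74 and -1.64, which places all nid-sEV libraries below all aid-sEV libraries by more than the spread of either group. The aid-sEV SD of 0.029 was the smallest of the 15 ratios in either group. It lies below what read counting alone gives there, an SD of 0.067 for miR-484 and 0.064 for miR-320-3p. Averaged over its 5 partners, the SD of the ratio was 1.22 for miR-320-3p, 1.23 for miR-484, 1.26 for miR-186-5p, 1.32 for miR-191-5p, 1.40 for miR-423-3p and 2.21 for miR-423-5p. By this measure miR-320-3p and miR-484 were close, although their RPM levels behaved differently between the groups.

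The mean log2 level of the 6 members, the kind of combined divisor that qPCR often uses, was 10.9, 11.5 and 11.6 in nid-sEV replicates 1, 2 and 3 and 12.3, 12.4 and 12.2 in the aid-sEV replicates. It was higher in every aid-sEV library, by 0.95 on average. Its SD was 0.37 in nid-sEVs and 0.11 in aid-sEVs.

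For each member, the entries with the most similar pattern were sought among the 172 other miRBase-named entries detected everywhere, by the SD of the log2 ratio over the 6 libraries. miR-191-5p was nearest to miR-23b-3p, with an SD of 0.12, and miR-23b-3p was also second for miR-186-5p (0.39), after miR-151-5p (0.39). miR-23b-3p had a mean of 312 RPM in nid-sEVs, below the 502 RPM of miR-484, whose counting SD there was 0.24. Counting error therefore limits how far an SD of 0.12 can be read. miR-320-3p was nearest to let-7i-5p (0.28) and miR-541-5p (0.29), miR-484 to miR-383-5p (0.35) and miR-7b-5p (0.45), miR-423-3p to let-7b-5p (0.62) and let-7c-5p (0.68), and miR-423-5p to miR-676-3p (0.49) and miR-574-3p (0.60). These are the smallest of 172 values each and describe 6 libraries.

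Other usual reference candidates were not all steadier. Of 10 on a list of such miRNAs, all were detected in every library, and limma called 0 of them higher or lower (3 were higher and 0 lower at an unadjusted p under 0.05). edgeR's quasi-likelihood and exact tests on the recovered reads called 0, and DESeq2 called 1 higher and 0 lower. The steadiest over the 6 libraries was miR-24-3p, with an SD of 0.40 and means of 6911 and 6671 RPM in nid-sEVs and aid-sEVs. The SD was 0.73 for miR-103-3p, 0.77 for miR-26a-5p, 0.83 for let-7a-5p, 0.90 for miR-16-5p and 1.39 for miR-25-3p, the highest of the list. miR-26a-5p and let-7a-5p were higher in every aid-sEV library, with log2 fold changes of 1.19 and 1.23 and adjusted p-values of 0.082 and 0.10 by limma. miR-92a-3p was lower without overlap, at 69.7, 122 and 79.2 RPM in nid-sEV replicates 1, 2 and 3 and 63.5, 31.2 and 49.1 RPM in the aid-sEV replicates, with a log2 fold change of -0.91 and an adjusted p of 0.38 by limma. Its nearest levels, 69.7 and 63.5 RPM, were close. Its SD was 0.72 times in nid-sEVs and 1.13 times in aid-sEVs the SD that counting alone gives. Among the 66 miRBase-named entries detected everywhere at a mean of at least 1000 RPM, the smallest SD over all libraries was that of let-7i-5p (0.17), followed by miR-30d-5p (0.23), miR-320-3p (0.27), let-7e-5p (0.30) and miR-7a-5p (0.30).

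Relative levels of other miRNAs depended on the divisor. miR-151-5p, the miRNA that the study follows, rose by 1.66 on the log2(RPM + 1) scale (limma, adjusted p = 0.037). Its log2 ratio to miR-423-5p differed between the groups by 3.76 (SE 1.05) and that to miR-320-3p by 1.52 (SE 0.40), and the groups did not overlap in either. With every library scaled to miR-320-3p, its adjusted p by limma was 0.067, which missed the threshold of 0.05. Scaled to miR-423-5p the adjusted p by limma was 0.026. Relative to miR-191-5p, miR-423-3p, miR-186-5p and miR-484 the differences were 0.023 (SE 0.51), -0.25 (SE 1.08), -0.27 (SE 0.33) and -0.56 (SE 0.62), and the groups overlapped. The same miRNA in the same libraries therefore read as 13.5-fold higher against miR-423-5p, 2.87-fold higher against miR-320-3p and 1.02-fold higher against miR-191-5p. The value against miR-423-5p moved in size with single libraries, to 25.4-fold without nid-sEV replicate 1 and 7.42-fold without nid-sEV replicate 3. Against miR-320-3p it stayed between 2.29-fold and 3.67-fold with each library left out. Against miR-191-5p the log2 difference ran from -0.30 to 0.39, and against miR-423-3p from -1.15 without nid-sEV replicate 3 to 0.71 without nid-sEV replicate 1. For its own qPCR of sEV miRNAs the study names a spike-in control added from outside, and synthetic standards for absolute levels. It names none of these members as a divisor there, so the ratios given here do not test its qPCR of miR-151.

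miR-375-3p, the most abundant islet miRNA, gave a like picture around a log2 fold change of 0.079 on the RPM scale. It read as 4.53-fold higher in aid-sEVs against miR-423-5p and as 4.40-fold higher in nid-sEVs against miR-484, with the groups apart in both cases. Against miR-320-3p its difference was -0.054 (SE 0.65) on the log2 scale, with -0.54 without nid-sEV replicate 1 and 0.56 without nid-sEV replicate 3. Its ratio to miR-423-5p varied little within a group, with log2 values of 3.60, 3.17 and 3.60 in nid-sEVs and 5.84, 5.63 and 5.44 in aid-sEVs, while both varied over 6-fold in RPM among nid-sEV libraries (6.10-fold for miR-423-5p and 6.12-fold for miR-375-3p).

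**Figure D5:**
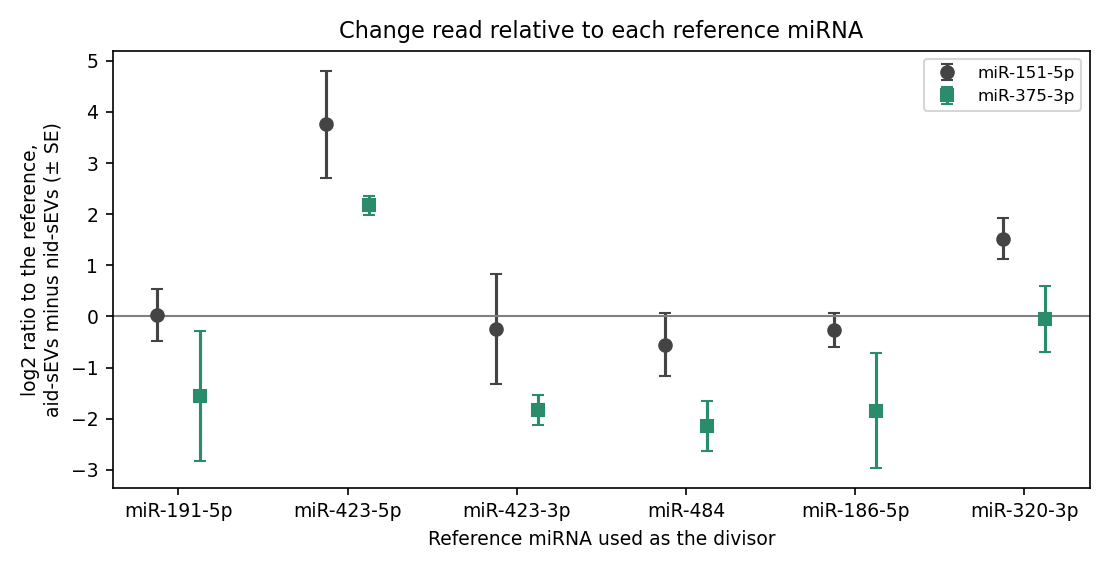
Difference between aid-sEVs and nid-sEVs in the log2 ratio of miR-151-5p (circles) and of miR-375-3p (squares) to each reference miRNA, with the standard error over 3 libraries per group. Against miR-423-5p both stand above 0 (3.76 and 2.18), against miR-484 both stand below 0 (-0.56 and -2.14), and against miR-320-3p they are near their values on the RPM scale.

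The same holds for the whole table. With every library scaled to miR-320-3p, limma called 72 of the 718 entries higher and 8 lower in aid-sEVs, against 112 and 13 for RPM. Scaled to miR-423-5p it called 161 higher and 0 lower, with 2 lower at an unadjusted p under 0.05. Scaled to miR-484 it called 16 higher and 77 lower, to miR-186-5p 24 and 98, to miR-191-5p 11 and 26, to miR-423-3p 2 and 4, and to the mean of the 6 members 34 and 22. The scaling shifted entries at 0 reads in a library as far as detected entries. An undetected entry thus took on the reverse of the divisor's change. The median log2 fold change over all entries was 3.21 scaled to miR-423-5p and -1.10 scaled to miR-484, against 1.11 for RPM. Only 219 entries were detected in every library, and calls were not counted for them alone. How many of the calls rest on entries at 0 reads was not tested.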

How the data were processed

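Small RNA libraries from 5 ng of sEV RNA, 3 of nid-sEVs and 3 of aid-sEVs, were sequenced on an Illumina NovaSeq instrument, and a company processed the reads. The submitters' processing notes list fastp 0.23.0, HISAT2 2.2.1 and GRCm38. The miRNA reference, the counting and the handling of near-identical sequences are not given in the sources used here. The authors deposited a table of RPM, relative to a total of reads in each library that the listed entries nearly fill. Columns of their own comparison (fold change, mean abundance, p-value and false discovery rate) were not used. Samples were grouped by title.

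Reads were recovered by dividing RPM by its smallest value above 0. In every library 100% of the values came out whole (tolerance 0.01 reads). limma 3.58.1 (eBayes with trend, R 4.3.3) was fitted to log2(RPM + 1) over all 718 entries with Benjamini-Hochberg adjustment, and an entry was called where the adjusted p was below 0.05 and the fold change more than 1 on the log2 scale in either direction. Fold changes on this scale can misstate those of low entries. Ratios between members used log2 RPM and a two-sided exact permutation test. edgeR 4.0.16 and DESeq2 1.42.0 on recovered reads were alternatives, beside other pseudocounts, filters, scalings, thinned reads, a replicate block and each library left out. Scripts were tested on simulated data. The members, lists and alternatives were chosen with earlier results of these data known. The comparison of arm ratios over all hairpins was not among the planned comparisons, and leaving libraries out of the levels relative to each member was added after seeing the data. Named miRNAs are the members, 10 other reference candidates, miR-151-5p, miR-375-3p, the 2 entries nearest each member, the 5 steadiest abundant entries and the marker lists.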

Additional observations from a re-analysis of the deposited data

How the results depend on the processing

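The call of miR-484 held in 13 and that of miR-186-5p in 12 of 17 other settings, and both kept their direction in all of them. The direction of miR-320-3p turned with only miRBase-named entries (-0.041), without nid-sEV replicate 1 (-0.048) and with edgeR's quasi-likelihood test (-0.017), and that of miR-425-5p turned without nid-sEV replicate 3 (-0.31), with that edgeR test (-0.42) and with DESeq2 (-0.12), all on the log2 scale. With each library left out these ranged from -0.048 to 0.29 and from -0.31 to 3.54. Of the members, 1 was called lower with miRBase-named entries, with edgeR's quasi-likelihood test and with DESeq2, and 4 higher and 1 lower at an unadjusted p under 0.05. With TMM factors 3 members were called higher, miR-191-5p among them, against 124 of all entries. Over all entries, 12 were called lower with miRBase-named entries, and 157 higher at an unadjusted p under 0.05. With each library left out, 0 to 4 members were called higher and 0 to 1 lower, and over all entries 33 to 150 were called higher and 1 to 26 lower. For the entries the highest counts came without nid-sEV replicate 1 and the lowest without nid-sEV replicate 2. For the members called higher, the count was 4 without nid-sEV replicate 1, 0 without nid-sEV replicate 2 or aid-sEV replicates 1 or 2, and 1 without aid-sEV replicate 3. The 4 include miR-191-3p, which had 0 reads in both remaining nid-sEV libraries. Over all entries, higher calls numbered 62 with a pseudocount of 10, 69 at a mean RPM of at least 10, 23 among entries detected in all libraries, 64 with thinned reads, 48 with edgeR's quasi-likelihood test, 63 with its exact test and 65 with DESeq2. Lower calls numbered 8 with a pseudocount of 0.1, 3 with TMM factors, 21 with the quasi-likelihood test, 50 with DESeq2 and 42 at an unadjusted p under 0.05. The cause of these differences was not tested. With the replicate number as a block in limma, 0 members were called higher, and 0 entries were called higher and 0 lower. Deviations of same-numbered libraries correlated at -0.054, 0.13 and -0.11, and not every library correlated best with its own number, so the numbers were not taken to pair the libraries. Depth limits both arms of miR-425 and miR-191-3p, whose 3-read floor reaches 59.4 RPM and whose Wilson upper limit at 0 reads reaches 76.0 RPM.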
